A study of Mus musculus with 7 samples.

Results

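The S100 genes encode small calcium-binding proteins, and 10 of them were chosen by name as the members described here: S100a3, S100a4, S100a6, S100a7a, S100a8, S100a9, S100a10, S100a11, S100a14 and S100a16. They are 10 of the 55423 features in the count table, and all 10 were among the 24433 genes that reached 5 reads in 1 tumour or more and were tested. The study asked how SOX2 changes cutaneous squamous cell carcinomas (cSCC) driven by BRAFV600E in the IVL+ cells of mouse epidermis. Whole tumours were sequenced as bulk RNA after depletion of ribosomal RNA, 1 tumour per mouse. In both groups a tamoxifen-inducible Cre recombinase under the involucrin (Ivl) promoter, activated by tamoxifen on the skin of mice 7 to 10 weeks old, switched on BRAFV600E. Ivl:BRAFV600E-SOX2LSL mice also carried a Rosa26 allele that makes SOX2 and eGFP once a stop cassette is removed. The 3 Ivl:BRAFV600E tumours are called B1, B2 (both female) and B3 (male), and the 3 Ivl:BRAFV600E-SOX2LSL tumours S1, S2 (both male) and S3 (female). The mice of B1 and B2, but not that of B3, carried a Rosa26 tdRFP reporter allele. Every Ivl:BRAFV600E-SOX2LSL tumour was collected sooner after induction than every Ivl:BRAFV600E tumour, so the effects of genotype and of time since induction cannot be told apart.

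S100 proteins fold around a pair of EF-hand motifs, helix-loop-helix units that hold calcium, and most act as dimers that open on calcium binding and attach to a partner protein. Many of their genes lie in the epidermal differentiation complex, a cluster on mouse chromosome 3 that also holds the genes of the cornified envelope. In skin, S100a8 and S100a9 form calprotectin, a zinc-binding and manganese-binding antimicrobial complex made in bulk by neutrophils and by inflamed keratinocytes. S100a7a is the mouse psoriasin-type gene, S100a10 and S100a11 are partners of annexins A2 and A1, and S100a14 and S100a16 are made by epithelial cells.

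Promoters of 8 of the 10 members were found in the RefSeq table (GRCm38.p6, 250 bases before to 50 bases after a transcript start), 12 promoters in all. The promoters printed here were picked because they belong to S100a6, a gene that rose, to S100a11, the neighbour of S100a10, and to the pair S100a8 and S100a9, whose levels moved together from tumour to tumour. They lie at chr3:90612644-90612943 (plus strand), chr3:93520246-93520545 (plus), chr3:90668821-90669120 (plus) and chr3:90695672-90695971 (minus), and each is written 5′ to 3′ with the matches to any of the searched motifs in capitals.
S100a6: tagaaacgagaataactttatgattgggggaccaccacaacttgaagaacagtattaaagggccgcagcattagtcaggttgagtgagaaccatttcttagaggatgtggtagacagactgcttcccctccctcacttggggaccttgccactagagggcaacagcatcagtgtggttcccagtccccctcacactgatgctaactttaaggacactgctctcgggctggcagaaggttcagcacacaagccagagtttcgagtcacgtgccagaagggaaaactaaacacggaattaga
S100a11: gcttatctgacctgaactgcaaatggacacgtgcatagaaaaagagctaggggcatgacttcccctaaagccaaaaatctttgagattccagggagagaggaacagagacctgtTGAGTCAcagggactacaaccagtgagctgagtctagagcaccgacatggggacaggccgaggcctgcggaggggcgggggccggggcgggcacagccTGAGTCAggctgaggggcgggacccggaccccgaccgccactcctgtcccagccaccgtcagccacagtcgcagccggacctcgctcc
S100a8: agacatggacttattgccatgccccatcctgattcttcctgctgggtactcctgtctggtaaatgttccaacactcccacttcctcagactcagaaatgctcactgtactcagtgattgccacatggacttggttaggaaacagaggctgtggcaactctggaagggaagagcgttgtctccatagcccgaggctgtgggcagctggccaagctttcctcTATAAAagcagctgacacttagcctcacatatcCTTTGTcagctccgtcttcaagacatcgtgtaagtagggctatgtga
S100a9: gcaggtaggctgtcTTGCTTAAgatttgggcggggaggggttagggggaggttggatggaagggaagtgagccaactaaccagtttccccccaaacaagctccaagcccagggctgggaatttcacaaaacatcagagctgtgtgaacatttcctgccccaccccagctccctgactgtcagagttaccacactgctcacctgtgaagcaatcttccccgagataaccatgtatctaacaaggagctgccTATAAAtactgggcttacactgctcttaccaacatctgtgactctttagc
Motifs were searched on both strands. The AP-1 motif was spelled TGANTCA. The core motif of SOX proteins was spelled ACAAAG and, in a further form with its own search, ACAATG. The TATA box was spelled TATAAA, and the C/EBP motif was spelled TTGCNNAA. No pair of these motifs overlapped in the sequences shown. S100a11 held the AP-1 letters at -136 and -38 from its start, counted to the first base of the match. In S100a8 the TATA letters lay at -30 and the reverse strand of ACAAAG at 4, and in S100a9 the C/EBP letters lay at -236 and the TATA letters at 1. The 300 bases of S100a6 held no match, which says only that these letters are not in this window. Among 32851 promoters of this length, 7.81% held the AP-1 letters, 28.6% the SOX letters, 13.6% TATAAA and 10.8% the C/EBP letters, and among the 12 promoters of members 2, 3, 4 and 1 did. A match is a run of letters and not a measured site.

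Between 23565432 and 31152826 counts fell on genes per tumour, and 3 counts, taken as the least that can be told from 0, stood for 0.0839 to 0.143 CPM (counts per 1 M, after TMM scaling). Sox2 lay between 0.238 and 0.716 CPM in Ivl:BRAFV600E tumours and between 155 and 182 CPM in Ivl:BRAFV600E-SOX2LSL tumours, which matches the labels. The squamous epithelium in the label was present, since the basal markers Krt14, Krt5, Krt15, Trp63, Itga6, Itgb4 and Col17a1 summed to between 17768 and 35858 CPM in Ivl:BRAFV600E and between 12727 and 27757 CPM in Ivl:BRAFV600E-SOX2LSL tumours. Other lists differed more. The 8 suprabasal markers, among them Krt1, Krt10 and Lor, summed to between 71421 and 94560 CPM against 2399 to 23189 CPM, and the 7 skeletal muscle genes tested summed to between 0.989 and 2.00 CPM against 97.9 to 773 CPM. S1 had the lowest suprabasal sum and the highest muscle, macrophage and fibroblast sums of the 6 tumours. In bulk RNA, fewer cells of a type and less RNA per cell cannot be told apart.

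Across all tested genes, 3.90% passed the edgeR test (adjusted p below 0.05), 2.39% higher and 1.51% lower in Ivl:BRAFV600E-SOX2LSL tumours. Of the 10 members, 2 rose, S100a10 and S100a6, and 0 fell. At an unadjusted p below 0.05, reached by 25.7% of all genes, edgeR gave 4 members, S100a10 and S100a6 higher and S100a14 and S100a16 lower. At an adjusted p below 0.05, DESeq2 called 1 member lower (S100a16) and limma 0. These tools called 3653 and 2142 of all genes in either direction. The log2 fold change (Ivl:BRAFV600E-SOX2LSL over Ivl:BRAFV600E) was positive in 8 members, with a median of 0.53 against 0.04 over all genes tested. The groups did not overlap for 4 members, S100a10, S100a6, S100a14 and S100a16, and for 34.2% of all genes. Before scaling, the 10 members together took 0.161%, 0.173% and 0.226% of all counts in B1, B2 and B3 and 0.202%, 0.363% and 0.292% in S1, S2 and S3. After TMM scaling they summed to 1705, 2101 and 2529 CPM in B1, B2 and B3. In S1, S2 and S3 the sums were 1607.5, 3391 and 2724 CPM, so S1 was then the lowest tumour. S100a8 and S100a9 made up between 18.6% of these member counts in B1 and 56.6% in S2, and without this pair the summed member level ranged from 1266 CPM in S1 to 1706 CPM in B2.

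**Figure D1:**
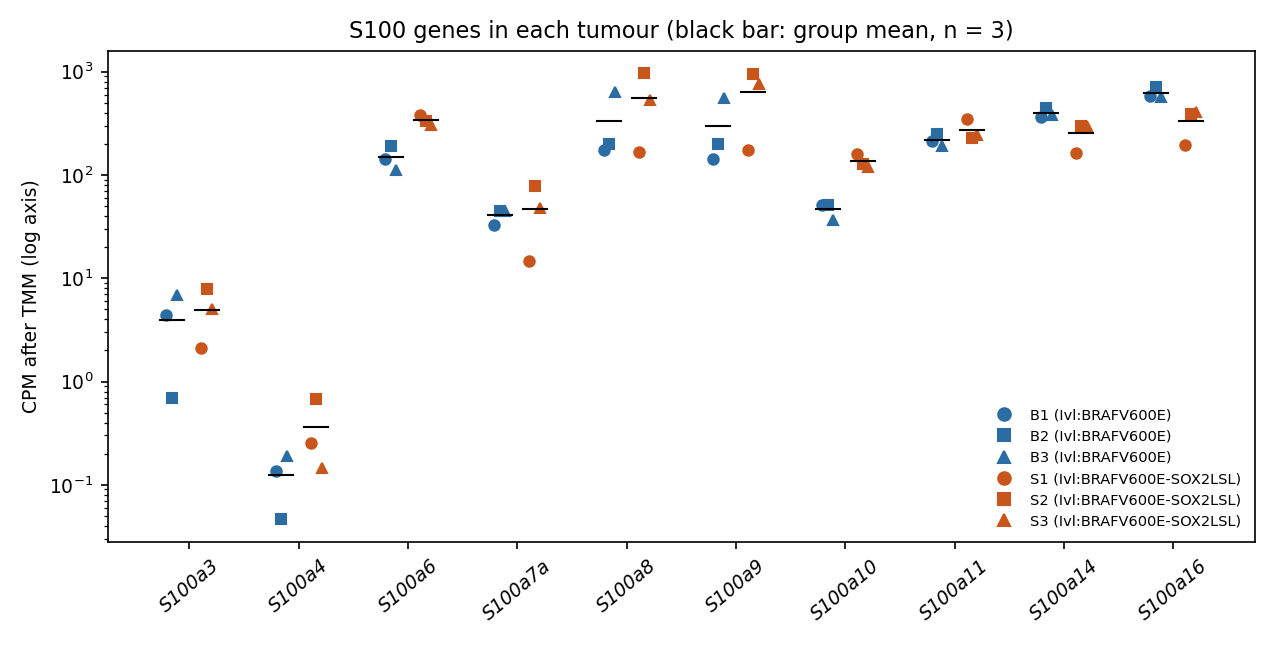
CPM after TMM of the 10 S100 genes on a log axis, with 1 point per tumour (blue, Ivl:BRAFV600E; orange, Ivl:BRAFV600E-SOX2LSL) and a black bar at each group mean (n = 3). S100a10 and S100a6 stand higher and S100a14 and S100a16 lower in every orange point than in every blue point, while S100a8 and S100a9 spread over several fold within both groups.

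S100a10 (ENSMUSG00000041959, chr3:93555080-93564643 of GRCm38, plus strand), the annexin A2 partner also called p11, whose EF-hands do not bind calcium, showed the largest fold among the members that passed the test. It had 50.7, 51.6 and 36.7 CPM in B1, B2 and B3 and 159, 128 and 120 CPM in S1, S2 and S3. All 3 Ivl:BRAFV600E-SOX2LSL tumours were above all 3 Ivl:BRAFV600E tumours, and the lowest of the former had more than the highest of the latter by a margin wider than the range of either group. The group means were 46.3 ± 8.37 and 136 ± 20.7 CPM (SD, n = 3), a 2.93-fold difference, and the log2 fold change was 1.55 ± 0.18 (standard error, SE, here and for later fold changes, edgeR adjusted p = 0.0143). Fits that each lacked 1 tumour gave 1.41 to 1.64, and the edgeR adjusted p rose above the threshold without B1 (0.0914) and without B2 (0.0595). Without S1 the log2 fold change was 1.42 (edgeR adjusted p = 0.00753).

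S100a10 protein is held in a tetramer with annexin A2 at the inner face of the plasma membrane. Anxa2, which encodes annexin A2, also rose, from 404, 446 and 395 CPM in B1, B2 and B3 to 774, 909 and 747 CPM in S1, S2 and S3 (log2 fold change 0.97 ± 0.15 SE, edgeR adjusted p = 0.0266). The groups did not overlap for Anxa2 either. The ratio of S100a10 to Anxa2 counts within a tumour was 0.126, 0.116 and 0.0929 in the Ivl:BRAFV600E tumours and 0.206, 0.141 and 0.161 in the others, without overlap. An exact two-sided permutation test gave p = 0.1, the smallest that 3 against 3 tumours allow, and 0.15 after adjustment over the 6 ratios computed. Ahnak, which encodes a giant scaffold protein bound by the S100a10-annexin A2 complex, had overlapping groups, between 7209 and 8603 CPM in Ivl:BRAFV600E and between 4792 and 8211 CPM in Ivl:BRAFV600E-SOX2LSL tumours (log2 fold change -0.15, edgeR adjusted p = 0.762). Of the 8 partner genes on the list, 2 rose and 0 fell, and 6 reached an unadjusted p below 0.05. Without overlap, 5 were higher and 1 was lower (Dlc1, log2 fold change -0.40, edgeR adjusted p = 0.139). The partners called higher numbered 5 with DESeq2, 4 with limma, and 0 with sex as a covariate or without B1, B2, B3 or S2. The other that rose was Anxa6, encoding annexin A6, with 9.38, 5.50 and 13.4 CPM against 52.7, 34.2 and 26.4 CPM (log2 fold change 2.00 ± 0.38 SE, edgeR adjusted p = 0.0391). Anxa2 kept its call without S1 or S3 and Anxa6 without S1, and in the other fits that lacked 1 tumour the edgeR adjusted p ranged up to 0.129 for Anxa2 and 0.166 for Anxa6. With sex as a covariate both calls were lost (edgeR adjusted p = 0.073 and 0.057).

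S100a11 (ENSMUSG00000027907, chr3:93520488-93526287, plus strand), the annexin A1 partner and the nearest S100 gene to S100a10, did not pass the test. It had 213, 248 and 193 CPM in B1, B2 and B3 and 346, 230 and 242 CPM in S1, S2 and S3. S1 was the highest tumour, and S2 and S3 lay inside the range of the Ivl:BRAFV600E tumours. The log2 fold change was 0.32 ± 0.20 (SE, edgeR adjusted p = 0.339) and 0.11 without S1. Anxa1, encoding annexin A1, had a log2 fold change of 0.72 ± 0.22 (SE, edgeR adjusted p = 0.104). The ratio of S100a10 to S100a11 was 0.238, 0.208 and 0.190 in the Ivl:BRAFV600E tumours and 0.460, 0.557 and 0.496 in the others, so this ratio of neighbouring genes, which does not depend on the scaling of the libraries, separated the groups (exact permutation test, two-sided, p = 0.1, the smallest possible, 0.15 after adjustment).

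S100a6 (ENSMUSG00000001025, chr3:90612882-90624181, plus strand), or calcyclin, a calcium sensor found in dividing epithelial cells and fibroblasts, was the other member that rose. It had 144, 193 and 113 CPM in B1, B2 and B3 and 382, 336 and 303 CPM in S1, S2 and S3. No tumour of one group came within the range of the other. The means were 150 ± 40.4 and 340 ± 39.8 CPM (SD, n = 3), 2.27-fold apart, with a log2 fold change of 1.18 ± 0.22 (SE, edgeR adjusted p = 0.0361). The size stayed between 1.01 and 1.40 when 1 tumour was left out, but the call held only without S1 (edgeR adjusted p = 0.0312) and was lost without B1 (0.162), B2 (0.0608), B3 (0.0774), S2 (0.0781) or S3 (0.0617). With sex as a covariate the edgeR adjusted p was 0.0838. Its partner gene Cacybp, encoding calcyclin-binding protein, had 58.3, 55.4 and 43.1 CPM against 37.6, 46.2 and 37.7 CPM, with overlapping groups and a log2 fold change of -0.37 (edgeR adjusted p = 0.203).

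S100a6 and S100a10 lie in separate blocks of the cluster and had a Pearson r of 0.98 between their log2 CPM over the 6 tumours, which share the group difference. The ratio of S100a6 to S100a10 was 2.84, 3.74 and 3.08 in B1, B2 and B3 and 2.40, 2.63 and 2.53 in S1, S2 and S3. S100a10 thus took the larger share of the pair in each Ivl:BRAFV600E-SOX2LSL tumour than in each Ivl:BRAFV600E tumour (exact permutation test, two-sided, p = 0.1, the smallest possible, 0.15 after adjustment).

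Macrophages and fibroblasts can also make S100a6 and S100a10 RNA, so their markers were set beside both genes. The 8 macrophage markers summed to between 74.2 and 167 CPM in Ivl:BRAFV600E and between 181 and 678 CPM in Ivl:BRAFV600E-SOX2LSL tumours, and 1 of the 8, Csf1r, the receptor for colony-stimulating factor 1, rose (log2 fold change 1.98, edgeR adjusted p = 0.0483). All 8 reached an unadjusted p below 0.05 and 7 did not overlap, all higher. Lyz2, encoding lysozyme, had 15.3, 24.4 and 59.1 CPM and 224, 112 and 33.6 CPM (log2 fold change 1.91, edgeR adjusted p = 0.162). Csf1r kept its call in 1 of the 6 leave-one-out fits (without S1) and lost it with sex as a covariate (edgeR adjusted p = 0.0717), and 15.1% of its exon bases overlap Hmgxb3 on the opposite strand. The 8 fibroblast markers summed to between 775 and 5117 CPM and to between 3980 and 8355 CPM, with overlap, and 0 of 8 passed the test (edgeR, 2 at an unadjusted p below 0.05). Their part in the rise of S100a6 and S100a10 was not tested.

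**Figure D2:**
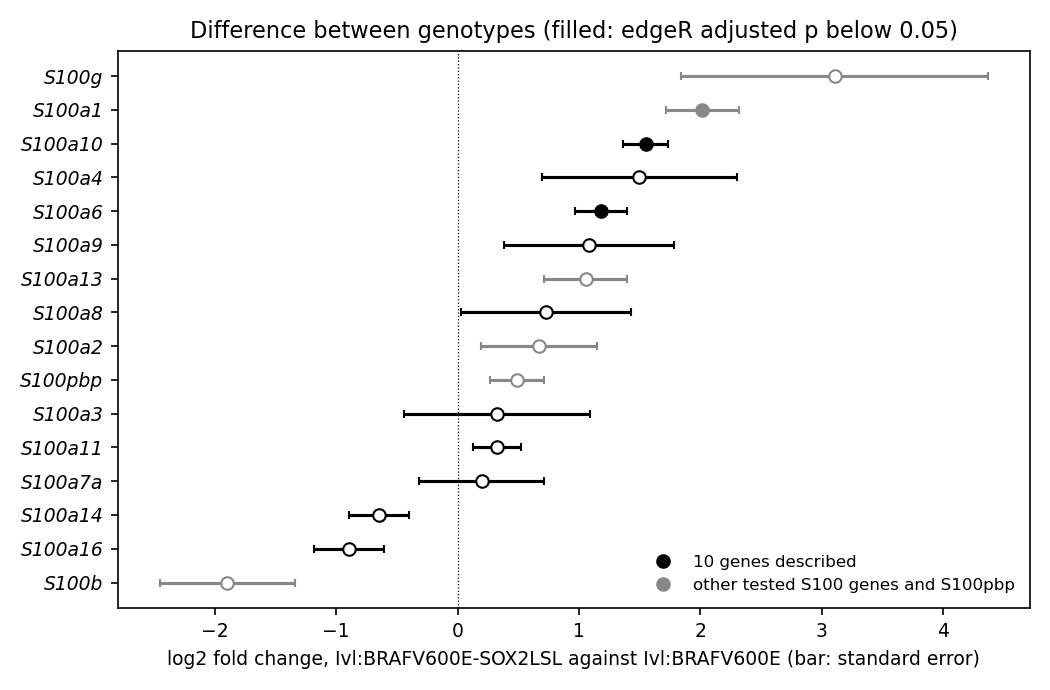
Log2 fold change of Ivl:BRAFV600E-SOX2LSL over Ivl:BRAFV600E tumours with its standard error (edgeR, 3 tumours per group) for the 10 members in black and 5 other tested S100 genes and S100pbp in grey, sorted by size. The filled points, S100a1, S100a10 and S100a6, had an adjusted p below 0.05, and S100a14, S100a16 and S100b lie left of 0.

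S100a14 and S100a16, neighbouring genes of stratified and glandular epithelium, lay on the other side. S100a16 (ENSMUSG00000074457, chr3:90537254-90543151, plus strand) had 581, 717 and 566 CPM in B1, B2 and B3 and 197, 393 and 412 CPM in S1, S2 and S3. S100a14 (ENSMUSG00000042306, chr3:90526856-90528837, plus strand) had 361, 450 and 382 CPM and 165, 298 and 299 CPM. For both genes every Ivl:BRAFV600E-SOX2LSL tumour was under every Ivl:BRAFV600E tumour, with S1 the lowest. The log2 fold change of S100a16 was -0.90 ± 0.29 (SE, edgeR adjusted p = 0.114), and that of S100a14 was -0.65 ± 0.25 (SE, edgeR adjusted p = 0.159). Neither passed the edgeR test. With DESeq2 the adjusted p was 0.0273 for S100a16 and 0.0847 for S100a14.

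Without S1 the log2 fold change was -0.63 for S100a16 (edgeR adjusted p = 0.0508) and -0.42 for S100a14 (edgeR adjusted p = 0.119). Over the 6 tumours the log2 CPM of S100a14 and S100a16 had a Pearson r of 0.99, a value that includes the group difference. Their ratio nevertheless separated the groups, at 0.621, 0.628 and 0.675 in B1, B2 and B3 and 0.838, 0.758 and 0.727 in S1, S2 and S3 (exact permutation test, two-sided, p = 0.1, the smallest possible, 0.15 after adjustment). The suprabasal markers were lower in the same tumours. Of the 8 suprabasal genes, 7 did not overlap between the groups and 2 fell, Dsg1a, encoding the desmosomal cadherin desmoglein 1 (log2 fold change -2.39, edgeR adjusted p = 0.0491), and Sbsn, encoding suprabasin (-1.97, edgeR adjusted p = 0.0267). Dsg1a kept its call without S1 and Sbsn without S1 or S3, and both lost it in the other leave-one-out fits and with sex as a covariate (edgeR adjusted p = 0.115 and 0.0523). The suprabasal genes called lower numbered 7 without S1, 1 without S3 and 0 without B1, B2, B3 or S2, and 7 with DESeq2 and 6 with limma. Krt1, encoding a suprabasal keratin, went from between 32201 and 45416 CPM to between 1010 and 13012 CPM (log2 fold change -2.24, edgeR adjusted p = 0.149). The part of these cells in the values of S100a14 and S100a16 was not tested.

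S100a8 and S100a9 had the widest spread within a group among the well-expressed members. S100a8 (ENSMUSG00000056054, chr3:90668978-90670035, plus strand) had 175, 197 and 635 CPM in B1, B2 and B3 and 168, 971 and 529 CPM in S1, S2 and S3. S100a9 (ENSMUSG00000056071, chr3:90692632-90695721, minus strand) had 143, 198 and 552 CPM and 174, 950 and 766 CPM. For both genes B3, S2 and S3 were high and B1, B2 and S1 were low, so each group held tumours of both levels and the groups overlapped. The means of S100a8 were 336 ± 259 and 556 ± 402 CPM (SD, n = 3), with a log2 fold change of 0.73 ± 0.70 (SE, edgeR adjusted p = 0.549). Those of S100a9 were 297 ± 222 and 630 ± 405 CPM, with a log2 fold change of 1.08 ± 0.70 (SE, edgeR adjusted p = 0.364). For both genes the difference between the means was smaller than the SD of the Ivl:BRAFV600E-SOX2LSL group, and leaving out a tumour moved the log2 fold change between 0.05 and 1.58 for S100a8 and between 0.66 and 1.89 for S100a9.

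The ratio between the RNAs of S100a8 and S100a9 varied less than the level of either gene. The ratio of S100a9 to S100a8 was 0.815, 1.004 and 0.869 in B1, B2 and B3 and 1.04, 0.978 and 1.45 in S1, S2 and S3, with overlap (exact permutation test, two-sided, p = 0.2, 0.24 after adjustment), while the level of each gene spanned a several-fold range. Pearson r between their log2 CPM was 0.97 over the 6 tumours.

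S100a7a (ENSMUSG00000063767, chr3:90654017-90658669, plus strand), a gene of the psoriasin type that IL-17 induces in keratinocytes, was lower than the calprotectin pair. It had 32.5, 44.6 and 45.1 CPM in B1, B2 and B3 and 14.7, 77.6 and 48.1 CPM in S1, S2 and S3. S2 was the highest and S1 the lowest tumour, both of the same genotype. The log2 fold change was 0.20 ± 0.51 (SE, edgeR adjusted p = 0.84), and it turned to -0.38 without S2. The ratio of S100a7a to S100a8 was 0.185 and 0.226 in B1 and B2 and between 0.0710 and 0.0909 in the other 4 tumours (exact permutation test between genotypes, two-sided, p = 0.4).

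Neutrophils carry much S100a8 and S100a9 RNA, so their markers were set beside this pair. The summed level of the 9 neutrophil markers tested was between 16.3 and 26.9 CPM in Ivl:BRAFV600E and between 211 and 1130 CPM in Ivl:BRAFV600E-SOX2LSL tumours, and most of the latter was Ltf, which encodes lactoferrin and is also made by glandular epithelium. Ltf had 0.0682, 0.462 and 1.62 CPM in B1, B2 and B3 and 1072, 168 and 451 CPM in S1, S2 and S3 (log2 fold change 9.69 ± 1.19 SE, edgeR adjusted p = 0.0163), and it was the 1 marker of 9 that was called. The call was lost without B1 (edgeR adjusted p = 0.0908) or B2 (0.0831). All 9 had a positive log2 fold change (median 2.01), 7 reached an unadjusted p below 0.05 and 7 did not overlap between the groups. Ltf was highest in S1, the tumour of its group with the least S100a8 and S100a9. The defining neutrophil gene Ly6g was near the floor, with 0, 1 and 1 reads in B1, B2 and B3 and 7, 6 and 5 in S1, S2 and S3, without overlap. The granule gene Ngp stayed at or below 0.361 CPM, and Camp had too few reads to be tested. Mmp8, encoding neutrophil collagenase, had 0.102, 0.416 and 0.0475 CPM and 1.65, 1.26 and 1.48 CPM (log2 fold change 2.96, edgeR adjusted p = 0.0567). Fpr1, a formyl peptide receptor (log2 fold change 3.36, edgeR adjusted p = 0.0503), and Itgam, the CD11b integrin chain (2.01, edgeR adjusted p = 0.0568), did not overlap either. The count of Itgam is uncertain, since 68.7% of its exon bases also belong to Gm49368 on the same strand. Csf3r, the receptor for granulocyte colony-stimulating factor, had 3.10, 10.0 and 10.1 CPM in B1, B2 and B3 and 26.1, 21.2 and 25.5 CPM in S1, S2 and S3, and Cxcr2 had 11.8, 8.36 and 12.7 CPM and 19.0, 14.7 and 30.4 CPM. Neither Csf3r (log2 fold change 1.65, edgeR adjusted p = 0.0713) nor Cxcr2 (0.96, edgeR adjusted p = 0.108) passed the test, although their groups did not overlap. The part of neutrophils in the levels of S100a8 and S100a9 was not tested. Over the 6 tumours, Pearson r between the log2 CPM of S100a8 or S100a9 and the 9 neutrophil markers lay between -0.22 and 0.55.

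**Figure D3:**
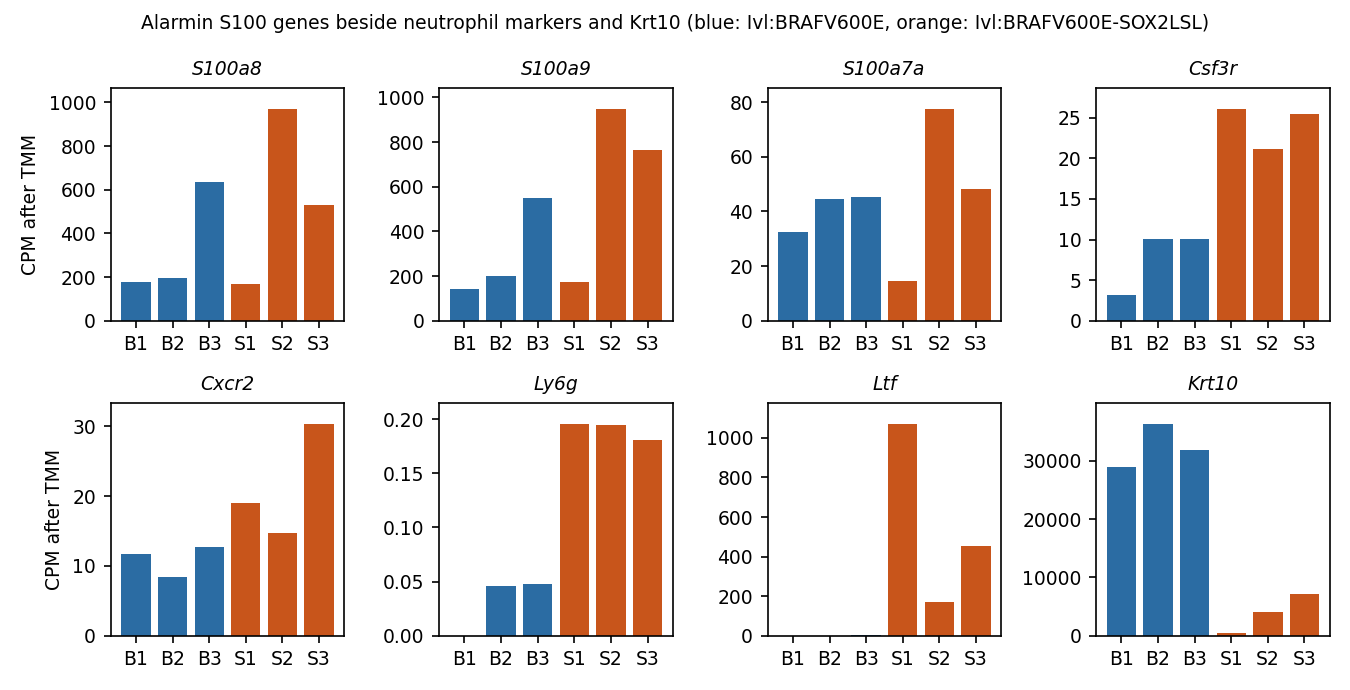
CPM after TMM per tumour of S100a8, S100a9 and S100a7a, of the neutrophil markers Csf3r, Cxcr2, Ly6g and Ltf and of the suprabasal keratin Krt10 (bars from 0, separate linear axes; blue, Ivl:BRAFV600E; orange, Ivl:BRAFV600E-SOX2LSL). S100a8 and S100a9 are high in B3, S2 and S3, whereas Csf3r is above 21 CPM in all 3 orange bars and Ly6g below 0.2 CPM in all 6.

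Cytokines and transcription factors that induce S100a7a, S100a8 and S100a9 in keratinocytes were measured as a list of inducers and mediators, of which 18 were tested, 2 rose and 0 fell (edgeR, 6 at an unadjusted p below 0.05). Cebpd, encoding the transcription factor C/EBP-delta, had 9.17, 6.98 and 10.2 CPM in B1, B2 and B3 and 39.5, 34.3 and 33.7 CPM in S1, S2 and S3 (log2 fold change 2.03 ± 0.18 SE, edgeR adjusted p = 0.00708). Of its exon bases, 15.0% overlap Spidr on the opposite strand. Il1a, encoding the epidermal cytokine interleukin 1 alpha, had 16.3, 20.1 and 12.5 CPM and 53.3, 66.1 and 52.6 CPM (log2 fold change 1.81 ± 0.20 SE, edgeR adjusted p = 0.0129), and 11.2% of its exon bases overlap an antisense transcript. Both calls were lost without B1 (edgeR adjusted p = 0.0726 for Cebpd and 0.0914 for Il1a). Neither gene overlapped between the groups, and S1, low in S100a8 and S100a9, was the highest tumour for Cebpd and lay between S2 and S3 for Il1a.

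The other inducers went several ways. Cebpb, encoding C/EBP-beta, had 128, 154 and 129 CPM and 57.8, 97.7 and 104 CPM (log2 fold change -0.66, edgeR adjusted p = 0.132), and 20.7% of its exon bases overlap Tmem189 on the opposite strand. Il17a, a strong inducer of S100a7a in skin, lay between 0.0341 and 0.57 CPM in Ivl:BRAFV600E and between 0.056 and 0.433 CPM in Ivl:BRAFV600E-SOX2LSL tumours. It had 1, 1 and 12 reads in B1, B2 and B3 and 2, 2 and 12 in S1, S2 and S3, so B3 and S3 were above the floor of 3 and the other tumours under it. The interleukin 36 genes, listed by their older symbols Il1f6, Il1f8 and Il1f9, had log2 fold changes of -0.76, -1.47 and -0.87 (edgeR adjusted p = 0.476, 0.121 and 0.235), and S1 was the lowest tumour for all of them. Stat3, a transcription factor downstream of cytokine receptors, had 188, 213 and 234 CPM and 260, 318 and 346 CPM (log2 fold change 0.54, edgeR adjusted p = 0.0973). The part of the inducers and mediators in the levels of S100a7a, S100a8 and S100a9 was not tested.

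Receptors through which S100 proteins act outside the cell, among them Tlr4 and Ager (RAGE), gave 0 of 9 called in either direction (edgeR, 4 at an unadjusted p below 0.05). Bsg, encoding basigin, a receptor for S100a9, had 164, 204 and 141 CPM and 192, 164 and 177 CPM (log2 fold change 0.06, edgeR adjusted p = 0.84). Tlr4 had 20.7, 17.3 and 19.8 CPM and 13.9, 14.1 and 9.79 CPM (log2 fold change -0.61, edgeR adjusted p = 0.105), without overlap. Ager stayed at or below 1.14 CPM in every tumour. Cd36, a fatty-acid receptor that binds the S100a8-S100a9 complex, had 4.77, 3.56 and 3.85 CPM and 23.9, 11.7 and 7.48 CPM (log2 fold change 1.82, edgeR adjusted p = 0.0593).

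S100a3 and S100a4, neighbours in the left S100 block, were low. S100a3 (ENSMUSG00000001021, chr3:90560578-90602702, plus strand), a protein of the hair cuticle, had 4.37, 0.693 and 6.84 CPM in B1, B2 and B3 and 2.1, 7.84 and 4.98 CPM in S1, S2 and S3. The groups overlapped, with B2 the lowest tumour and S2 the highest. The log2 fold change was 0.32 ± 0.77 (SE, edgeR adjusted p = 0.825), and it turned to -0.17 both without B2 and without S2. The hair keratin genes Krt31, Krt34, Krt35, Krt81 and Krt86 were also near 0 in B2, at most 0.0924 CPM, and were listed with 0 counts in S1, where S100a3 had 2.1 CPM. Of the 6 hair shaft genes tested, 1 fell, Hoxc13 (log2 fold change -2.86, edgeR adjusted p = 0.0175), a call lost without B1, B2 or B3 (0.0951, 0.0573 and 0.059). The part of hair follicles in the level of S100a3 was not tested.

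S100a4 (ENSMUSG00000001020, chr3:90603771-90606045, plus strand), a protein of fibroblasts, macrophages and motile tumour cells, was the lowest member. It had 4, 1 and 4 reads in B1, B2 and B3 and 9, 21 and 4 in S1, S2 and S3, or 0.136, 0.0462 and 0.190 CPM and 0.252, 0.680 and 0.144 CPM. S3 lay inside the range of the Ivl:BRAFV600E tumours. The log2 fold change was 1.50 ± 0.80 (SE, edgeR adjusted p = 0.284). The count of S100a4 is uncertain, because 302 of its 584 exon bases (51.7%) also belong to the gene model Gm42674 on the same strand, which had 0 reads in 5 tumours and 4 in S1, and the sources used here do not state how reads on shared bases were counted. The fibroblast gene Col1a1 had between 385 and 4019 CPM in the same libraries.

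Levels of different genes were compared per length of exon, as CPM per kilobase. In Ivl:BRAFV600E tumours the order was S100a9 (570 ± 425, SD, n = 3), S100a8 (484 ± 374), S100a11 (427 ± 54.9), S100a16 (384 ± 51.4), S100a14 (230 ± 27.1), S100a6 (110 ± 29.6), S100a10 (38.2 ± 6.9) and S100a7a (29.6 ± 5.2), with S100a3 and S100a4 below 1. The first 4 did not differ beyond their spread, whereas S100a14, S100a6 and S100a10 stood apart from each other and the tumours of S100a10 and S100a7a overlapped. In Ivl:BRAFV600E-SOX2LSL tumours the order became S100a9 (1207 ± 777), S100a8 (801 ± 580), S100a11 (533 ± 125), S100a6 (249 ± 29.1), S100a16 (206 ± 73.6), S100a14 (147 ± 44.7), S100a10 (112 ± 17.1) and S100a7a (34.0 ± 22.9). S100a6 thus moved ahead of S100a14 and S100a16 in CPM per kilobase, though S100a6 and S100a16 were within their spread of each other, as were S100a14 and S100a10. The exon length of each gene counts all its annotated transcripts, which can lower a level per kilobase. It was 5660 bases for S100a3, 1727 for S100a14, 1617 for S100a16, 1367 for S100a6 and 522 for S100a9. The order thus depends on these lengths.

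The remaining S100 genes were measured as a list of 8, 7 S100 genes and S100pbp, of which 5 S100 genes and S100pbp had enough reads to test, 1 rose and 0 fell (edgeR, 4 at an unadjusted p below 0.05). S100a1, known from heart and skeletal muscle, had 2.22, 1.48 and 3.14 CPM in B1, B2 and B3 and 9.18, 8.19 and 10.3 CPM in S1, S2 and S3 (log2 fold change 2.01 ± 0.30 SE, edgeR adjusted p = 0.0254). The call was lost with sex as a covariate (edgeR adjusted p = 0.057) and without B1 (0.126), B2 (0.0725), S2 (0.0597) or S3 (0.0577). Skeletal muscle genes rose in the same tumours, 6 of the 7 tested (1 with limma, and 0 without B1 or B2). These were Acta1, Ckm, Tnnt3, Mylpf, Myl1 and Actn3, genes of the contractile and energy apparatus, led by Acta1 with 0.136, 0.462 and 0.57 CPM in B1, B2 and B3 and 321, 340 and 55.0 CPM in S1, S2 and S3. The list summed to 773, 480 and 97.9 CPM in S1, S2 and S3. S100a1 was highest in S3, the tumour with the least muscle RNA of the 3, and the part of muscle in its level was not tested. S100pbp, which encodes an S100P-binding protein and no S100 protein, had 10.7, 9.93 and 11.7 CPM and 20.1, 12.7 and 12.7 CPM (log2 fold change 0.49, edgeR adjusted p = 0.219). S100a13 (log2 fold change 1.06, edgeR adjusted p = 0.117) and S100b (-1.90, edgeR adjusted p = 0.097) did not overlap between the groups and did not pass the test.

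The fused-type S100 genes join an S100 domain to a long repeat region and encode proteins of the cornified layer and hair sheath. All 7 had a negative log2 fold change, with a median of -1.83, 5 did not overlap between the groups, and 1 fell. That gene was Crnn, encoding cornulin, with 122, 38.9 and 23.9 CPM in B1, B2 and B3 and 3.08, 1.36 and 4.98 CPM in S1, S2 and S3 (log2 fold change -4.30 ± 0.75 SE, edgeR adjusted p = 0.0324). Rptn, encoding repetin, had 9068, 8870 and 7125 CPM and 757, 3180 and 3106 CPM (log2 fold change -1.83, edgeR adjusted p = 0.0902). Crnn kept its call in 1 of the 6 leave-one-out fits (without S1) and lost it with sex as a covariate (edgeR adjusted p = 0.0516). The fused-type genes called lower numbered 5 with DESeq2, 4 without a filter, 3 with limma and 0 with sex as a covariate. The median of the fused-type genes was thus below 0 and that of the 10 members above it.

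The 10 members lie in an interval of 3.05 Mb on chromosome 3 from S100a1 to S100a10 (chr3:90511034-93564643), with 1 block of 12 S100 genes at the left end (0.185 Mb) and S100a11 and S100a10 at the right end (0.0442 Mb). Over all tested genes, 2.39% rose and 1.51% fell, with a median log2 fold change of 0.04. Of the 13 S100 genes tested in the interval, 3 rose (S100a1, S100a6 and S100a10) and 0 fell, with a median log2 fold change of 0.73. Of the 71 other genes tested between them, 4 rose, 19 fell and 59 had a negative log2 fold change, with a median of -1.80. The 4 that rose, named after their values were seen, were the small proline-rich genes Sprr2a1, Sprr2a2, Sprr2a3 and Sprr3, and the Sprr2a genes are near-identical copies between which the counting could split reads. S100a11 and S100a10, at the right end of the interval, had positive fold changes beyond a stretch of genes with negative ones, and S100a14 and S100a16 had negative fold changes inside the left block.

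**Figure D4:**
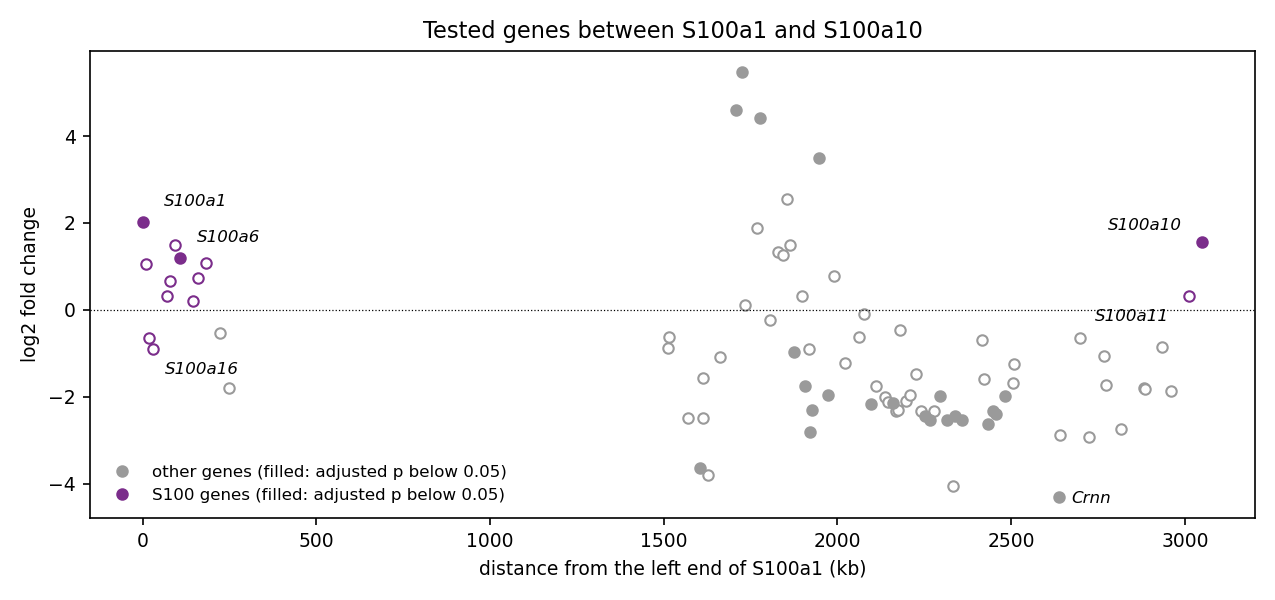
Log2 fold change of each tested gene of the interval by distance in kb from the left end of S100a1 (purple, 13 S100 genes; grey, 71 other genes; filled, edgeR adjusted p below 0.05). The S100 genes lie at the ends and mostly above 0, and 59 of the 71 genes between them lie below 0.

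**Figure D5:**
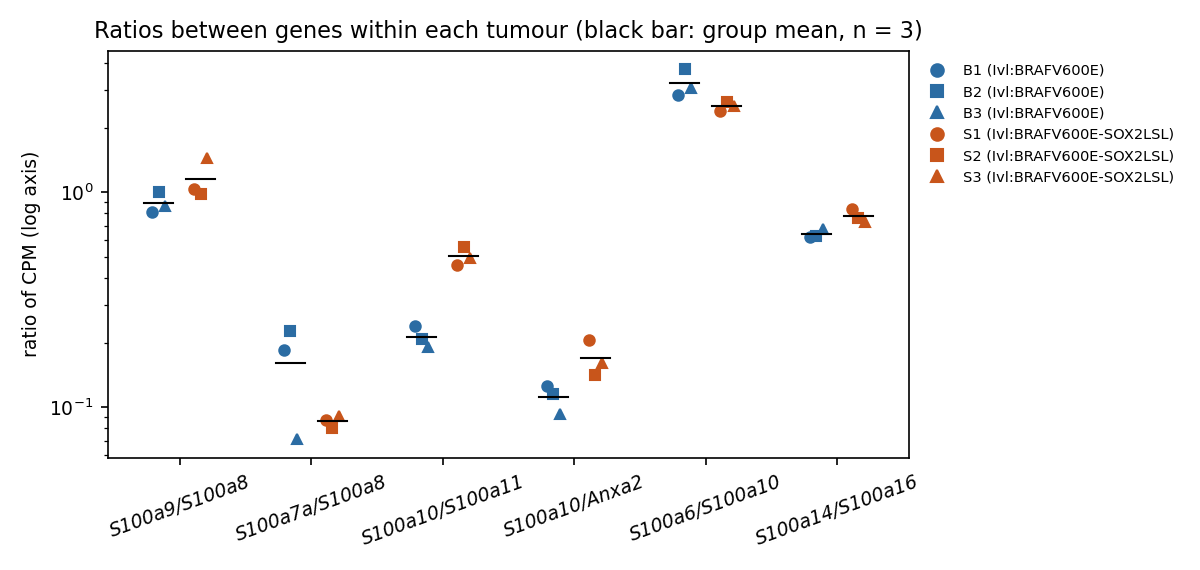
The 6 ratios of CPM within a tumour on a log axis, with 1 point per tumour (blue, Ivl:BRAFV600E; orange, Ivl:BRAFV600E-SOX2LSL) and a black bar at the group mean (n = 3). S100a10 against S100a11 and against Anxa2, S100a6 against S100a10 and S100a14 against S100a16 have no overlap between the groups, while S100a9 against S100a8 and S100a7a against S100a8 overlap.

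The genes whose log2 CPM was most like that of a member over the 6 tumours, among genes with a mean of at least 1 CPM, were named as a description. For S100a10 they were Tm9sf1, Hexdc and Ube2z (Pearson r 0.997 to 0.998), and for S100a6 Khsrp, Socs3 and Mrps35 (r 0.996 to 0.998). For S100a16 they were Rnf10, Pdlim2 and Cebpb (r 0.999), and for S100a14 Ube2n-ps1, Vps26b and Erlin1 (r 0.997 to 0.999). For S100a8 they were Mid1, Ehf and Lrch3 (r 0.98 to 0.99), and for S100a9 they included Aplf and Lrch3 (r 0.98 to 0.99), so Lrch3 was shared by the calprotectin pair. For S100a7a they were Hipk3, Luc7l3 and Rnf40, for S100a11 Brd8, Sae1 and Clcn2, for S100a3 Thbs4, Ebf3 and Eln, and for S100a4 Camk2b, Nras and Cacna1h, all with r of at least 0.98.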

How the data were processed

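Bulk RNA of mouse cSCC was sequenced after ribosomal RNA depletion, paired-end. The authors checked reads with FastQC 0.11.8, trimmed them with Trim Galore, aligned them to GRCm38 with HISAT2 2.1.0 and counted them per gene with featureCounts of Subread 1.6.3, and deposited raw read counts, not normalised or pooled. Whether strand was used in counting is not given in the sources used here. Columns are named by mouse, and genotype and sex came from the mouse list of the study. Of 7 columns, 1 matched no listed mouse and was not used. It is named like the Ivl:BRAFV600E-SOX2LSL columns, whereas the labels hold 1 more Ivl:BRAFV600E tumour than was assigned, which leaves some doubt on the assignment.

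Genes that reached 5 reads in 1 tumour or more were tested, and edgeR 4.0.16 in R 4.3.3 (TMM, quasi-likelihood test, genotype as the factor, Benjamini-Hochberg over 24433 genes, threshold 0.05) gave fold changes, adjusted p and CPM, with a prior count of 2 for log2 CPM. The labels list 4 Ivl:BRAFV600E tumours and 3 Ivl:BRAFV600E-SOX2LSL tumours, of which 3 against 3 were tested. The p-values measure only the spread between these tumours. The total counts of 23565432 to 31152826 per tumour set the precision, and the floor of 3 counts covers counting error only, since PCR duplicates are not independent molecules.

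All 10 members were named, with each called gene and, for most lists, the gene of highest mean CPM, which is no ranking per length, and some other list genes named after their values were seen; the members and lists were chosen with earlier results of these data known. Krt85 and S100a7l2 were not analysed here, and 1 result under the rule for named genes is not reported here. Alternatives were DESeq2 1.42.0, limma 3.58.1 (voom, sample weights), RLE and upper-quartile scaling, no filter, filterByExpr, sex as a covariate and each tumour left out. Promoters came from RefSeq (GRCm38.p6), matched by symbol. Scripts were tested on simulated data. Tables, exact permutation tests and figures used Python 3.11.15 with pandas 2.3.3, scipy 1.17.1 and matplotlib 3.10.9.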

Additional observations from a re-analysis of the deposited data

How the results depend on the processing

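With 3 tumours per group, single tumours changed many calls. S100a4 had between 1 and 21 reads per tumour, a count made uncertain by its shared exon bases. edgeR called 954 genes, and 22 to 1575 when each tumour was left out (22 without B1, 50 without B2, 179 without B3, 1575 without S1, 202 without S2 and 412 without S3). DESeq2 called 3653, limma 2142, edgeR without a filter 1759 and with sex as a covariate 228. The members called higher numbered 2, and 0 to 2 when a tumour was left out (0 without B1 or B2, 1 without B3, S2 or S3), and 1 with sex as a covariate. The members called lower numbered 0, and 1 with DESeq2, with 0 in every fit that left out a tumour. S100a3 reversed to -0.17 without B2 and without S2, over a range of -0.17 to 0.96, and S100a7a to -0.38 without S2, over a range of -0.38 to 0.62. The causes were not tested. Of 129 alternative values for the members, 117 kept direction and side of the threshold, 8 lost the call, 1 gained it and 3 reversed. Of 273 for the other called genes listed, 186 kept the call and 87 lost it, with 0 reversed. Over all genes the log2 fold changes had a median of 0.04 with TMM, 0.03 with RLE and -0.06 with upper-quartile scaling. No paired analysis was possible because the columns carry no replicate number.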

Other observations

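Antimicrobial genes of the epithelium, which act beside calprotectin, split in direction. Of 8 tested, 1 rose and 3 fell. Pglyrp1, encoding a peptidoglycan recognition protein, had 0.409, 0.554 and 0.713 CPM in B1, B2 and B3 and 11.8, 5.57 and 9.21 CPM in S1, S2 and S3 (log2 fold change 3.99 ± 0.39 SE, edgeR adjusted p = 0.00884). Slpi, encoding the secretory leukocyte protease inhibitor, had 490, 605 and 369 CPM and 113, 156 and 123 CPM (log2 fold change -1.90 ± 0.23 SE, edgeR adjusted p = 0.0138). The beta-defensin genes Defb4 (log2 fold change -3.44, edgeR adjusted p = 0.0238) and Defb14 (-1.57, edgeR adjusted p = 0.0281) fell as well. None of these 4 genes overlapped between the groups, and each lost its call in 2 or more of the 6 leave-one-out fits. With sex as a covariate Defb4 (edgeR adjusted p = 0.0506) and Defb14 (0.0802) lost their calls. Lcn2, encoding lipocalin 2, had 1.91, 0.60 and 26.9 CPM and 20.9, 13.6 and 62.9 CPM and did not pass the test (log2 fold change 1.73, edgeR adjusted p = 0.41). Defb3 was below 2.4 CPM in B1, B2 and S1 and between 16.7 and 18.6 CPM in B3, S2 and S3, the tumours that were also high in S100a8 and S100a9, and it did not pass the test either (log2 fold change 0.71, edgeR adjusted p = 0.782). Defb3 and Lcn2 were singled out after their values were seen.

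Markers of other cell types gave 0 calls in edgeR for T cells (6 genes, 1 at an unadjusted p below 0.05), endothelium (5 genes, 2), melanocytes (5 genes, 1), Schwann cells (5 genes, 0), adipocytes (5 genes, 2) and basal keratinocytes (7 genes, 4).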
